A study of Mus musculus with 9 samples.

Results

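The insulin-like growth factor (IGF) genes of cultured AdvSca1-SM cells were followed through TGF-β stimulation and through addition of PFI-3, a ligand of the bromodomain in Brg1, the ATPase of a chromatin remodeling complex. The set held the 10 genes *Igf1* (ENSMUSG00000020053), *Igf2* (ENSMUSG00000048583), *Igf1r* (ENSMUSG00000005533), *Igf2r* (ENSMUSG00000023830), *Igfbp2* (ENSMUSG00000039323), *Igfbp3* (ENSMUSG00000020427), *Igfbp4* (ENSMUSG00000017493), *Igfbp5* (ENSMUSG00000026185), *Igfbp6* (ENSMUSG00000023046) and *Igfbp7* (ENSMUSG00000036256), chosen by symbol from the Ensembl identifiers of the files. All 10 were found among the 55416 Ensembl genes of the count table, and all 10 were among the 14879 genes that passed edgeR's filter on low counts.

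RNA-Seq was done on 9 libraries in 3 groups of 3, all after 72 h with 0.1% DMSO. Stem cells received vehicle only, the TGF-β group received 5 ng/mL TGF-β, and the group named Both received 5 ng/mL TGF-β with 50 μM PFI-3. AdvSca1-SM cells are Sca1+ progenitors of the arterial adventitia that descend from smooth muscle. They were sorted for YFP and Sca1 from the pooled aortas and carotid arteries of 8-week-old SM22α-Cre-YFP mice, in which a Cre driven by a smooth muscle promoter switches on the reporter. Maintenance medium held 10% FBS with basic FGF and EGF. Before stimulation the cells were growth arrested for 24 h in 0.1% FBS and then moved to DMEM with 0.1% FBS, whereas the Stem group is described as grown in stem cell medium. Medium and TGF-β therefore cannot be told apart where Stem is set against TGF-β, while TGF-β and Both differed in PFI-3. The replicates are called independent, but no source used here says whether they were separate isolations, so p-values measure the spread between these cultures only.

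IGF1 and IGF2 are secreted peptides that signal through the receptor tyrosine kinase IGF1R to PI3K, AKT and the MAP kinases. IGF2R, the cation-independent mannose 6-phosphate receptor, carries IGF2 to lysosomes. In tissues most IGF is held by secreted binding proteins, which limit or extend its access to the receptor and are themselves cut by proteases such as PAPP-A. In mesenchymal cells these genes are known for their part in proliferation, matrix production and differentiation.

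Library totals ran from 35686291 to 47741128 counts, and Spearman correlations between replicates across genes were 0.995 to 0.998 (genes are not independent replicates). Values below are normalized counts, that is, counts scaled by TMM to a mean library of 41184338. A gene was called past the threshold at an adjusted p of 0.05 in the quasi-likelihood test of edgeR, adjusted by Benjamini-Hochberg over all tested genes, together with a log2 fold change beyond -1 or 1. The 4 adventitial progenitor markers *Ly6a*, *Pdgfra*, *Cd34* and *Scara5* summed to between 50475 and 58767 normalized counts in the Stem cultures, 6361 to 6638 under TGF-β and 6784 to 7423 under Both. *Pdgfra* carried most of this sum, with a mean of 5438 under TGF-β and 6268 under Both, whereas the means of *Ly6a* (941 and 734), *Cd34* (20.8 and 13.4) and *Scara5* (92.3 and 41.3) were lower under Both. Of the 4, *Scara5* was past the threshold defined above from TGF-β to Both, at -1.18 on the log2 scale (adjusted p = 0.0383 by edgeR). In the same comparison *Pdgfra* rose by 0.20 (adjusted p = 0.0485 by edgeR), and *Ly6a* and *Cd34* were not called (adjusted p = 0.0859 and 0.234 by edgeR). The 4 smooth muscle markers *Myh11*, *Cnn1*, *Smtn* and *Lmod1* summed to 3278 to 4239.9 in Stem, 2960.3 to 3456 under TGF-β and 2784 to 2914 under Both. *Smtn* carried most of this sum, with means of 2594, 2485 and 2312 in Stem, TGF-β and Both. The means of *Myh11* (263, 88.3 and 51.6), *Lmod1* (504, 311 and 267) and *Cnn1* (378, 335 and 216) also fell from group to group. *Myh11* was past the threshold from Stem to TGF-β at -1.58 on the log2 scale (adjusted p = 2.12e-05 by edgeR). Of the 4 endothelial markers only *Kdr* passed the filter, and the 4 together summed to 5.43 to 15.7 in Stem, 35.6 to 47.7 under TGF-β and 34.2 to 42.4 under Both, with *Pecam1*, *Cdh5* and *Tie1* each at 13.2 normalized counts or less in every library. Mean *Kdr* was 0.721 in Stem, with 2 counts or fewer per library, 26.1 under TGF-β and 27.8 under Both. Its log2 fold change from Stem to TGF-β was 4.97, past the threshold (adjusted p = 8.34e-06 by edgeR). The 4 leukocyte markers summed to 137 to 145 in Stem, 163 to 208 under TGF-β and 276 to 296 under Both, with *Adgre1* at 0 counts in all libraries and *Ptprc* at 2.93 or less. *Csf1r* and *Lyz2* carried most of this sum. Mean *Csf1r* was 28.5 in Stem, 76.1 under TGF-β and 138 under Both, and mean *Lyz2* was 114, 109 and 145. The log2 fold change of *Csf1r* was 1.41 from Stem to TGF-β, past the threshold (adjusted p = 2.07e-04 by edgeR). With PFI-3 *Csf1r* rose by 0.86 (adjusted p = 0.0149 by edgeR) and *Lyz2* by 0.41 (adjusted p = 0.0363 by edgeR) on the log2 scale. The extraction text in the labels names hepatic tissue, yet the 4 hepatocyte markers *Alb*, *Apoa1*, *Ttr* and *Serpina1a* summed to at most 2.63 normalized counts in any library. The part of endothelial or leukocyte RNA in the results below was not tested. In bulk RNA, fewer cells expressing a gene and less RNA per cell cannot be told apart.

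From Stem to TGF-β, 6 of the 10 IGF genes passed the threshold (25.1% of all tested genes did). The 2 that rose were *Igf1*, about 10.8-fold, and *Igfbp2*, about 5.54-fold, where 10.6% of all genes rose. The 4 that fell were *Igf2*, *Igfbp4*, *Igfbp3* and *Igf1r*, where 14.5% of all genes fell. With no fold minimum 9 of the 10 had an adjusted p below 0.05 by edgeR (75.0% of all genes), 3 of them higher (37.3% of all genes) and 6 lower (37.7%). The values of the groups did not overlap for the same number, 9 of 10, against 76.8% of all genes. When PFI-3 was added, *Igfbp5* was the 1 gene of the 10 past the threshold, and it fell (0.632% of all genes were past it, 0.470% lower and 0.161% higher). At an adjusted p below 0.05 by edgeR, 5 of the 10 differed from TGF-β to Both (8.92% of all genes), 1 higher (3.54%) and 4 lower (5.38%). Again 5 of 10 had no overlap of these groups, against 32.7% of all genes. The median log2 fold change of the 10 genes was -0.65 from Stem to TGF-β and -0.14 from TGF-β to Both, beside medians over all tested genes of -0.0027 and -0.0020.

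**Figure D1:**
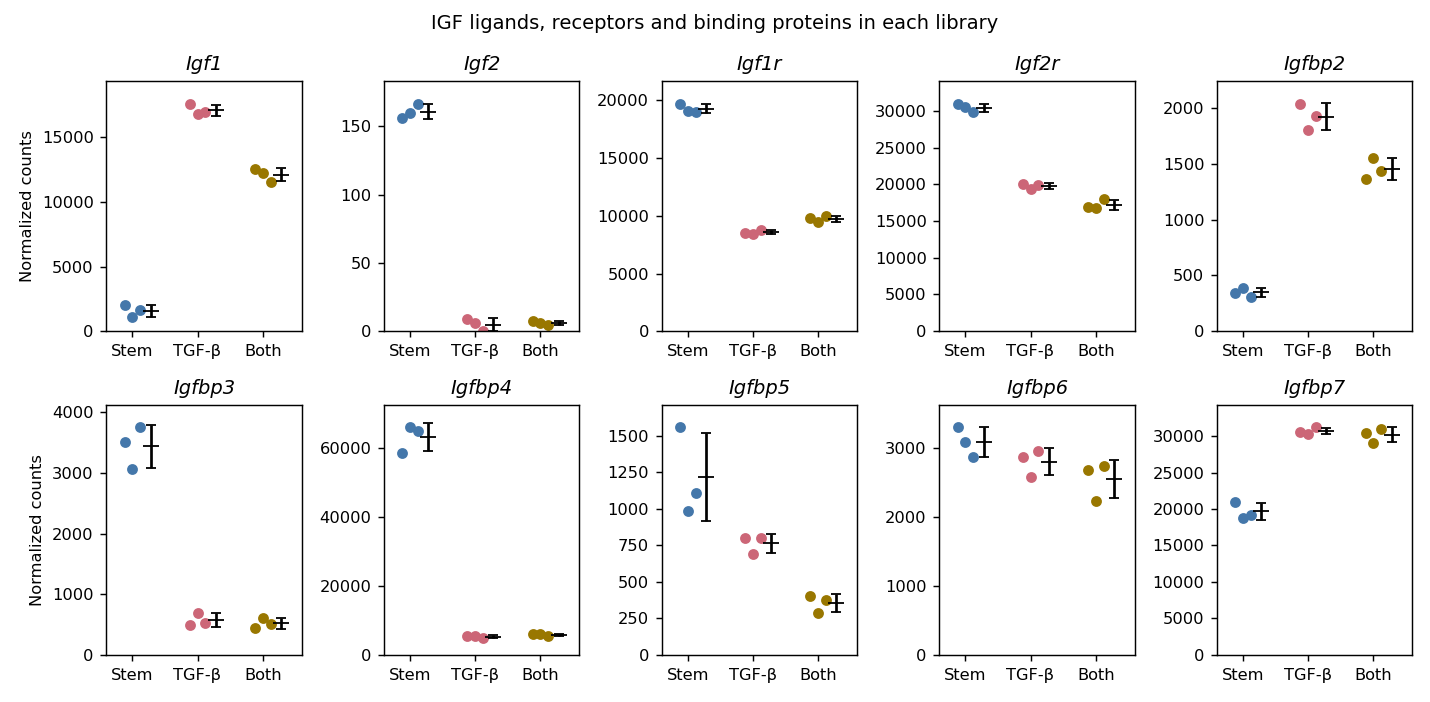
Normalized counts (linear y axes from 0, one panel per gene) of the 10 IGF genes in Stem, TGF-β and Both. Each point is 1 library, and the black bar and whiskers are the group mean ± SD (n = 3); *Igf1* and *Igfbp2* lie lowest in Stem, *Igfbp4* and *Igf2* are highest in Stem, and *Igfbp5* is lowest in Both.

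Of the 10 genes, all 10 had at least 1 start site in a RefSeq-derived table of promoters (GRCm38.p6, another build than the GRCm39 named in the study's methods). The 250 bases before 4 of these starts are shown. From Stem to TGF-β, *Igf1* rose most, *Igfbp2* was the other gene that rose past the threshold, and *Igfbp4* was the binding protein that fell most. *Igfbp5* was the gene that fell past the threshold with PFI-3. Of the 2 *Igfbp2* starts the second is shown, the only one of them whose window held a match to the motifs below. Capitals mark matches to GTCTAGAC (SMAD palindrome), CAGACA (a box bound by SMADs), TGAGTCA (AP-1) or GGAATG (TEAD), each searched on both strands, or to TATAAA on the gene's strand. Positions are on GRCm38.p6, with strands + for *Igf1*, *Igfbp2* and *Igfbp4* and - for *Igfbp5*: chr10:87860861-87861110, chr1:72825137-72825386, chr11:99040994-99041243 and chr1:72874866-72875115.
*Igf1*: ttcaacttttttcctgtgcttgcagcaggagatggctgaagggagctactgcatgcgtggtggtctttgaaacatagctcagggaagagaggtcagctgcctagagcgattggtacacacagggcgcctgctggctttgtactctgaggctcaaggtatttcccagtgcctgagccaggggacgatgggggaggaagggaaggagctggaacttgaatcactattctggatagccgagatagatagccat
*Igfbp2*: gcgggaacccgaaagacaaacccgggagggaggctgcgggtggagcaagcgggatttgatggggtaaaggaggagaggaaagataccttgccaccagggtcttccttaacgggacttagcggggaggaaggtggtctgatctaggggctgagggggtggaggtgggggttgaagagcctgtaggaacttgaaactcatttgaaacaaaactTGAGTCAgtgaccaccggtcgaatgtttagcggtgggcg
*Igfbp4*: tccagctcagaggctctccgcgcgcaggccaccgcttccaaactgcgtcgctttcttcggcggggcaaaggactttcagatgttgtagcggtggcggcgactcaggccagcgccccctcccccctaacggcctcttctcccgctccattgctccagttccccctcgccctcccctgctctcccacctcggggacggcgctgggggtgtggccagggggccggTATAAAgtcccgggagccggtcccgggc
*Igfbp5*: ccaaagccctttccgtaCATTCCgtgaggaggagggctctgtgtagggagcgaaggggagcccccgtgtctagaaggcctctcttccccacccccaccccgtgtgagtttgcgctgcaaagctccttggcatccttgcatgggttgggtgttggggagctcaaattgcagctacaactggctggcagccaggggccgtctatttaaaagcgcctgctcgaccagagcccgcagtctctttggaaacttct

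TATAAA stood 28 bases before the *Igfbp4* start, and 7.59% of the 32851 windows of this length held it. TGAGTCA stood 39 bases before the second *Igfbp2* start, against 4.46% of all windows, and was in no other window of the 10 genes. The window before the first *Igfbp2* start, which is not shown, held none of the motifs searched. The *Igfbp5* window held GGAATG on the opposite strand (12.6% of all windows), which was also found in 3 of the 4 *Igf2* windows. CAGACA was found in 2 of the *Igf2* windows alone (17.1% of all windows) and GTCTAGAC in none of the 10 genes (0.167%). A match is a run of letters and not a measured binding site.

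Among the ligands, *Igf1* was the gene of the 10 with the largest rise. It had 2009, 1110.5 and 1639 normalized counts in the Stem cultures, 17602, 16787 and 16940.2 under TGF-β, and 12548, 12226 and 11538 under Both. The 3 groups did not overlap, with Stem lowest and TGF-β highest. The log2 fold change from Stem to TGF-β was 3.43 (standard error, SE, 0.154, adjusted p = 1.01e-09 by edgeR). From TGF-β to Both *Igf1* fell by 0.50 on the log2 scale (95% interval -0.80 to -0.20, adjusted p = 0.0431 by edgeR), to 0.707 of its TGF-β level. That second call was lost under 9 of 16 other settings, among them DESeq2 (adjusted p = 0.0788) and the omission of any 1 library of TGF-β or Both (0.0840 to 0.139), although its size stayed between -0.53 and -0.47. With the replicate number as a block its adjusted p was 0.00651 by edgeR.

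*Igf2*, the fetal growth factor expressed from the paternal allele, moved the other way. Raw counts were 149, 147 and 154 in Stem, 8, 6 and 0 under TGF-β, and 8, 6 and 5 under Both. Every Stem library stood far above every other library, and TGF-β and Both overlapped. The fitted log2 fold change from Stem to TGF-β was -5.04 (SE 0.346, adjusted p = 5.35e-08 by edgeR) and ranged from -5.68 to -4.43 with each library left out. From TGF-β to Both it was 0.28 with a 95% interval from -1.08 to 1.64 (adjusted p = 0.841 by edgeR), and at this depth a true change anywhere in that interval would be compatible with the counts. *H19*, the maternally expressed noncoding RNA of the same imprinted domain, had 2454 ± 375 normalized counts in the Stem cultures, 836 ± 105 under TGF-β and 596 ± 29.7 under Both (mean ± SD, n = 3). Its log2 fold change was -1.55 from Stem to TGF-β (adjusted p = 6.62e-08 by edgeR) and -0.49 from TGF-β to Both (adjusted p = 0.0219 by edgeR). The antisense transcript *Igf2os* had 4 counts or fewer in every library.

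Transcripts of both receptors fell from Stem to TGF-β. *Igf1r*, the signaling receptor, had 19713, 19049 and 19023 normalized counts in the Stem cultures, 8503, 8427 and 8764 under TGF-β, and 9779.7, 9469 and 9963 under Both. Stem was highest, TGF-β lowest, and no library of one group fell within another. Its log2 fold change was -1.17 from Stem to TGF-β (SE 0.0372, adjusted p = 4.62e-11 by edgeR), and it was past the threshold in all 16 other settings. With PFI-3 *Igf1r* rose by 0.19 on the log2 scale (95% interval 0.10 to 0.27, adjusted p = 0.00901 by edgeR). It was the only one of the 10 that was higher at an adjusted p below 0.05. Without TGF-β replicate 2 that adjusted p was 0.0521.

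*Igf2r*, the lysosomal sorting and IGF2 clearance receptor, had 30951, 30485 and 29819.9 normalized counts in the Stem cultures, 20022, 19352 and 19883 under TGF-β, and 16865, 16745 and 17992 under Both. It stepped down from Stem to TGF-β and again to Both without overlap. The log2 fold changes were -0.62 (adjusted p = 2.46e-08 by edgeR), short of the fold minimum, and -0.20 (95% interval -0.29 to -0.11, adjusted p = 0.00847 by edgeR). Without Both replicate 1 the second adjusted p was 0.0504. *Airn*, the noncoding RNA transcribed antisense to *Igf2r*, had 87.4 ± 8.81, 33.5 ± 9.65 and 23.3 ± 8.25 normalized counts in the 3 groups (mean ± SD, n = 3). The strand setting of the counting is not given in the sources used here, so reads where the 2 genes overlap may be split between them in a way that was not tested.

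*Igfbp4*, which encodes a binding protein cut by PAPP-A, showed the largest fall among the binding proteins. It had 58488, 65887 and 64826 normalized counts in the Stem cultures, 5469, 5566 and 4937 under TGF-β, and 5937, 5973 and 5355 under Both. Stem was about 11.8-fold above TGF-β, and TGF-β and Both overlapped. The log2 fold change from Stem to TGF-β was -3.57 (SE 0.0682, adjusted p = 8.13e-13 by edgeR), between -3.62 and -3.51 with each library left out. With PFI-3 it was 0.11 (95% interval -0.025 to 0.25, adjusted p = 0.307 by edgeR).

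*Igfbp3*, the main carrier of IGFs in blood, fell as well. Its libraries held 3510.2, 3056 and 3748 normalized counts in the Stem cultures, 495, 698 and 528 under TGF-β, and 436, 609 and 515 under Both. Stem stood above the other groups, which overlapped. The log2 fold change was -2.58 from Stem to TGF-β (SE 0.133, adjusted p = 3.55e-09 by edgeR) and -0.15 from TGF-β to Both (95% interval -0.45 to 0.16, adjusted p = 0.590 by edgeR). *Igfbp1*, its immediate neighbor in the RefSeq annotation, had 0 counts in all 9 libraries, which allows up to 3 counts per library, between 2.63 and 3.26 normalized counts (counting error only).

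*Igfbp2*, a binding protein that prefers IGF2, rose. There were 347, 387 and 308 normalized counts in the Stem cultures, 2039.5, 1802 and 1934 under TGF-β, and 1367, 1557 and 1439 under Both. No groups overlapped, and Both lay in the middle. The log2 fold change was 2.47 from Stem to TGF-β (SE 0.0821, adjusted p = 6.99e-11 by edgeR). With PFI-3 *Igfbp2* fell by 0.41 on the log2 scale (95% interval -0.56 to -0.25, adjusted p = 0.00461 by edgeR), a call kept in all 16 other settings, where it ran from -0.46 to -0.36.

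*Igfbp5*, a matrix-binding member of the family, was the one most affected by PFI-3. It had 1557, 983 and 1109.97 normalized counts in the Stem cultures, 799, 689.6 and 799.6 under TGF-β, and 403, 284 and 377 under Both. The order was Stem, TGF-β and Both from high to low, with no overlap and with Stem replicate 1 well above the other Stem libraries. From Stem to TGF-β the log2 fold change was -0.67 (SE 0.154, adjusted p = 0.00172 by edgeR), and it was -0.45 without Stem replicate 1. From TGF-β to Both *Igfbp5* fell by 1.10 on the log2 scale (95% interval -1.47 to -0.73, adjusted p = 0.00180 by edgeR), to 0.467 of its TGF-β level. This passed the threshold in 15 of 16 other settings, and without Both replicate 2 the log2 fold change was -0.97. A test against a fold of 2 itself (edgeR's TREAT) did not call *Igfbp5*, and it called 4 genes of all tested. *Igfbp2* and *Igfbp5* are adjacent in the RefSeq annotation with 0 genes between them. Against TGF-β both were lower in Both, whereas against Stem *Igfbp2* was higher and *Igfbp5* lower in TGF-β.

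*Igfbp6*, which prefers IGF2, was the steadiest of the 10 from Stem to TGF-β. Its values were 3294, 3079 and 2865 in Stem, 2871, 2573 and 2950.5 under TGF-β, and 2672, 2236 and 2738 under Both. Neighboring groups overlapped. The log2 fold change from Stem to TGF-β was -0.14 (95% interval -0.31 to 0.034, adjusted p = 0.130 by edgeR). It reached an adjusted p of 0.0137 with total counts in place of TMM, which moved the median of all genes to -0.122, and of 0.0458 without the filter on low counts. With PFI-3 it was -0.13 (95% interval -0.31 to 0.038, adjusted p = 0.334 by edgeR).

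*Igfbp7*, a relative that binds IGFs weakly and insulin as well, rose by less than the fold minimum. It had 21022, 18781 and 19204 normalized counts in the Stem cultures, 30594, 30277 and 31172 under TGF-β, and 30477, 29087 and 30993 under Both. Stem was lowest, and TGF-β and Both overlapped. The log2 fold change was 0.64 from Stem to TGF-β (SE 0.0468, adjusted p = 9.49e-08 by edgeR). With PFI-3 it was -0.023 (95% interval -0.13 to 0.078, adjusted p = 0.818 by edgeR).

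**Figure D2:**
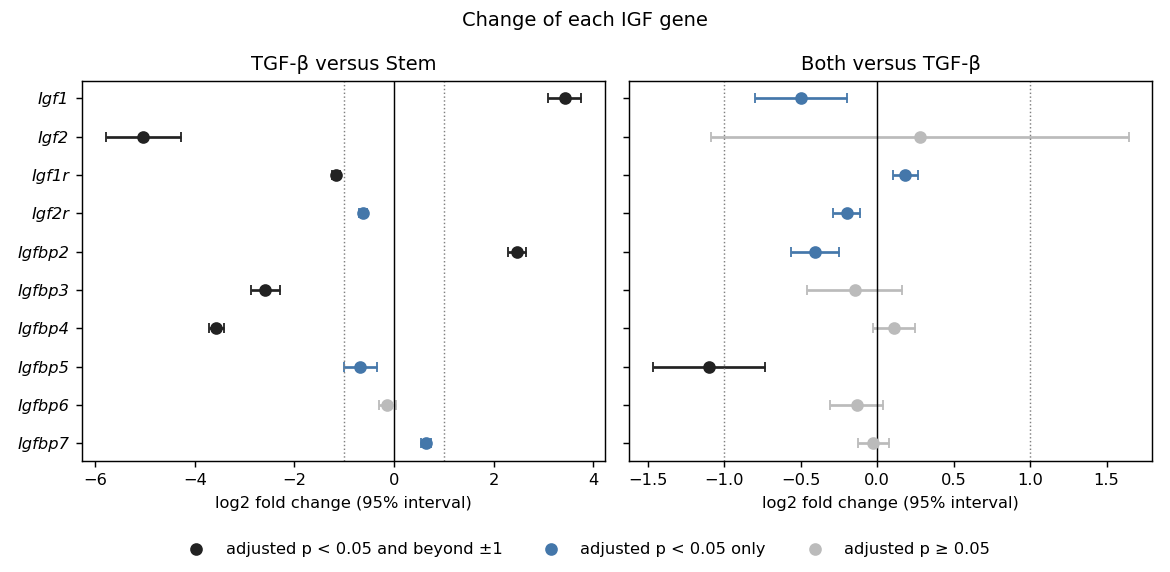
Log2 fold changes of the 10 IGF genes from Stem to TGF-β (left) and from TGF-β to Both (right), with 95% intervals from edgeR; dotted lines mark -1 and 1 and the 2 x axes differ in scale. Black points passed the threshold, blue points had an adjusted p below 0.05 only, and grey points neither; the right panel holds 1 black point, *Igfbp5* at -1.10.

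From Stem to Both, which shares its libraries with both comparisons above, 6 of the 10 genes passed the threshold (22.8% of all genes), 2 higher (9.55%) and 4 lower (13.2%). *Igf1*, with a log2 fold change of 2.93, and *Igfbp2*, with 2.07, were higher in Both. *Igf2* at -4.76, *Igfbp4* at -3.45, *Igfbp3* at -2.73 and *Igfbp5* at -1.77 were lower (adjusted p at most 9.28e-07 by edgeR). *Igf1r* at -0.98 lay just short of the fold minimum, while *Igfbp5*, short of it from Stem to TGF-β, was past it here. With no fold minimum all 10 had an adjusted p below 0.05 by edgeR (73.3% of all genes), 3 higher (36.6%) and 7 lower (36.6%). The groups did not overlap for 10 of 10, against 74.7% of all genes. The median log2 fold change was -0.90 for the 10 and -0.0046 for all genes.

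Levels of different genes were compared per kilobase of annotated exon. In Stem, *Igfbp7* with 16269 ± 985 and *Igfbp4* with 16072 ± 1019.6 normalized counts per kilobase were the most abundant of the 10 and overlapped (mean ± SD, n = 3). *Igf2r*, *Igfbp6*, *Igf1r* and *Igfbp3* followed without overlap, at 3423 ± 64.0, 2769 ± 193, 1688 ± 34.3 and 1098 ± 112 per kilobase. *Igfbp2*, *Igfbp5* and *Igf1* came next with overlapping neighbors, and *Igf2* was lowest at 30.6 ± 1.03 per kilobase. In TGF-β *Igfbp7* stood alone at the top with 25377 ± 376 per kilobase, above *Igfbp6* at 2516 ± 179. *Igf1* had moved from rank 9 to rank 4 at 1728 ± 43.7 per kilobase, and *Igfbp4* from rank 2 to rank 5 at 1357 ± 86.2, where it overlapped *Igfbp2*. In Both the order was the same but for *Igfbp4* above *Igf1*, and *Igfbp6* and *Igf2r* overlapped. With the longest transcript in place of all exons, *Igf1* had rank 3 in TGF-β, where it overlapped *Igfbp6*, and rank 4 in Both.

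Summed per kilobase, the 6 binding proteins came to 36648 ± 198 in Stem, 30879 ± 493 under TGF-β and 29947 ± 929.7 under Both (mean ± SD, n = 3). Stem was highest, and TGF-β and Both overlapped. *Igfbp4* made up 40.4%, 46.0% and 45.2% of it in the Stem libraries and between 4.02% and 5.27% in the other 6. *Igfbp7* made up 42.6% to 47.2% in Stem and 81.7% to 83.6% in the other 6. *Igfbp2* went from 0.649 ± 0.0744% to 4.27 ± 0.224% and 3.33 ± 0.316%, and *Igfbp6* held between 6.96% and 8.47% in all libraries. For each 100 units of summed binding protein there were 0.437 ± 0.122 units of *Igf1* in Stem, 5.60 ± 0.139 under TGF-β and 4.09 ± 0.252 under Both. Computed on the longest transcripts, the same ratio was 0.599, 7.75 and 5.66. These are ratios of transcripts and say nothing of protein.

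**Figure D3:**
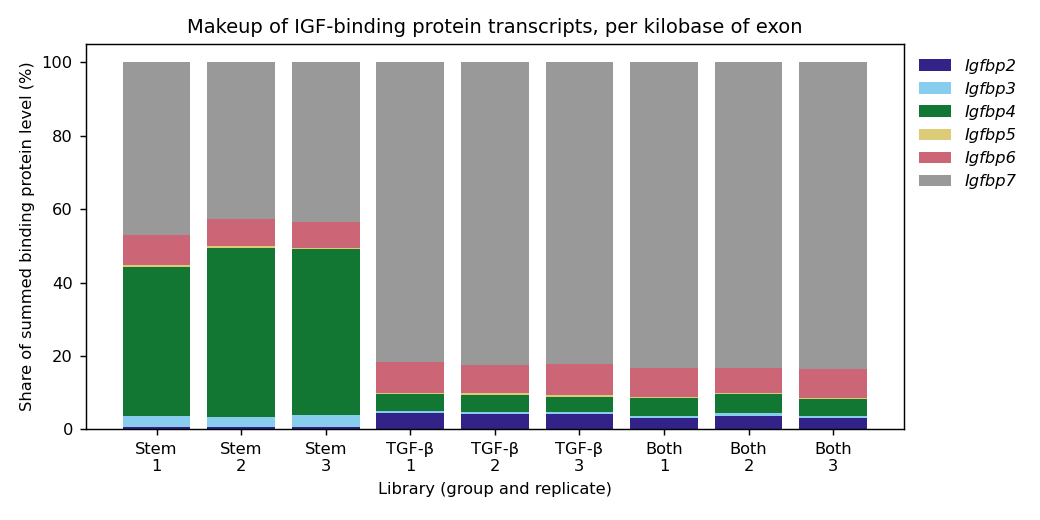
Share (%) of each of the 6 binding protein genes in their summed level, in normalized counts per kilobase of exon, with 1 stacked bar per library. *Igfbp4* (green) takes 40.4% to 46.0% in the Stem libraries and at most 5.27% in the TGF-β and Both libraries, where *Igfbp7* (grey) takes at least 81.7%.

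A list of 50 other genes of the pathway was taken by role, of which 42 were tested. From Stem to TGF-β, 7 of the 42 passed the threshold, 2 higher and 5 lower, against the shares of all genes given above (25.1%, 10.6% and 14.5%). At an adjusted p below 0.05 by edgeR, 9 were higher and 26 lower, where 37.3% and 37.7% of all genes were. The median log2 fold change of the 42 was -0.27. From TGF-β to Both 0 of the 42 passed the threshold by edgeR (0.632% of all genes). At an adjusted p below 0.05 by edgeR, 1 was higher (3.54% of all genes) and 7 were lower (5.38%), and 18 had an unadjusted p below 0.05 (24.1% of all genes). DESeq2 called 0 past the threshold and 9 at an adjusted p below 0.05. None of the 4 other extracellular genes, *Igfbp1*, *Igfals*, *Igfbpl1* and *Ins2*, passed the filter on low counts.

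The genes that act on binding proteins held the widest changes of the list from Stem to TGF-β. Past the threshold, 1 of the 7 tested was higher (10.6% of all genes) and 2 were lower (14.5%). *Pappa* encodes PAPP-A, a metalloprotease whose substrates include IGFBP4. It had 1145, 1504 and 1300.4 normalized counts in the Stem cultures, 4805, 5362 and 5103 under TGF-β, and 2565, 3114 and 2960.5 under Both. The groups did not overlap, and Both lay in the middle. Its log2 fold change was 1.95 from Stem to TGF-β (SE 0.0931, adjusted p = 1.80e-09 by edgeR) and -0.82 from TGF-β to Both (SE 0.0881, adjusted p = 1.96e-04 by edgeR). *Stc1*, a stanniocalcin of the family whose members inhibit PAPP-A, had 3 counts or fewer in each library of TGF-β and of Both, so that Stem exceeded TGF-β at least 23.3-fold, taking 3 counts per library as the floor. *Pappa2*, which cuts IGFBP5 and IGFBP3, went from 85.8 ± 20.4 in Stem to 19.2 ± 4.30 under TGF-β and 12.0 ± 5.01 under Both (mean ± SD, n = 3), and its log2 fold change was -2.16 from Stem to TGF-β (adjusted p = 1.37e-05 by edgeR). Of the 7, 4 fell with PFI-3 at an adjusted p below 0.05, namely *Pappa*, *Stc2*, *Adam12* and *Htra1*, with log2 fold changes of -0.82, -0.51, -0.42 and -0.29 (5.38% of all genes fell by this rule).

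Downstream of the receptor, 1 of the 6 tested adaptors and 1 of the 18 genes from PI3K to mTOR passed the threshold from Stem to TGF-β. Of all tested genes 25.1% did. *Irs2*, an adaptor that links the receptor to PI3K, was past the threshold from Stem to TGF-β at -1.35 on the log2 scale (adjusted p = 1.77e-10 by edgeR). It had 2209 ± 25.8 normalized counts in the Stem cultures, 868 ± 15.5 under TGF-β and 901 ± 56.6 under Both (mean ± SD, n = 3). Of the 18 genes from PI3K to mTOR, *Pik3cb*, a catalytic subunit of PI3K, was the 1 past the threshold, at 1.48 (adjusted p = 5.57e-10 by edgeR). With *Pik3cb*, 5 of the 18 were higher and 10 lower at an adjusted p below 0.05, against 37.3% and 37.7% of all genes (75.0% in either direction). With PFI-3, *Pik3ca*, another catalytic subunit, was the 1 of the 18 with an adjusted p below 0.05 by edgeR (8.92% of all genes), at a log2 fold change of 0.15. Among the regulators and neighbors of the IGF2 genes, *H19* and *Airn* fell past the threshold from Stem to TGF-β, the latter at -1.39 on the log2 scale (adjusted p = 2.14e-04 by edgeR). *Htra1*, a secreted protease that cuts binding proteins, was past it from Stem to Both, at -1.10, and at -0.81 was short of it from Stem to TGF-β. *Stc2*, *Adam12*, *Pik3ca*, *Igfbp1* and *Igf2os* are named here after their values were seen, since few genes shared their count or locus.

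**Figure D4:**
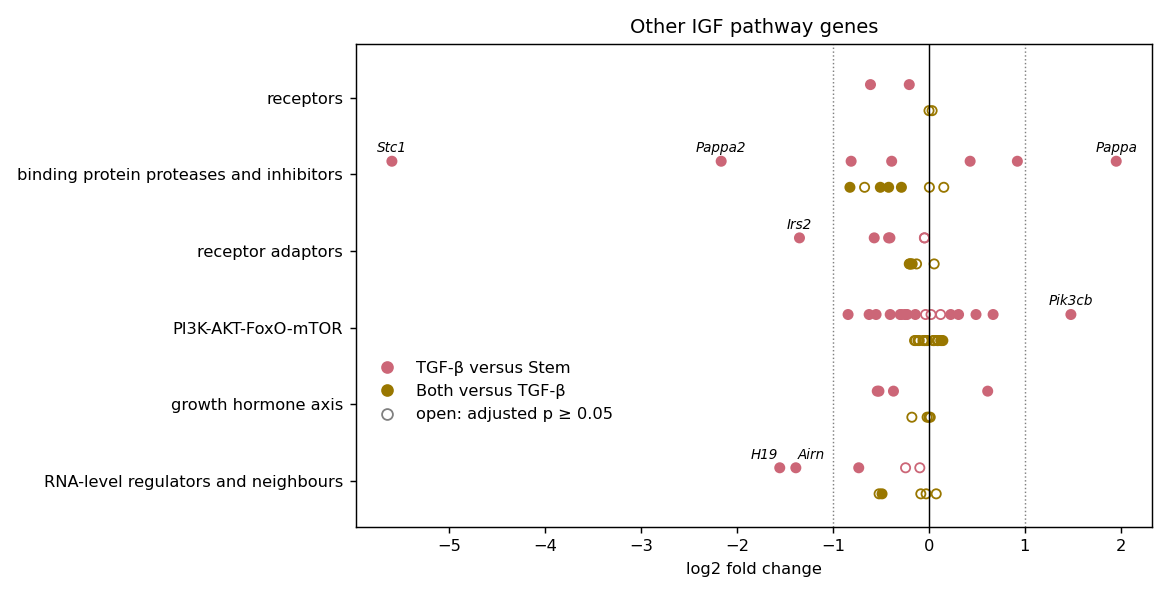
Log2 fold changes (x axis) of the 42 tested pathway genes by role (rows), red for TGF-β versus Stem and brown for Both versus TGF-β; each point is 1 gene, open where the adjusted p was 0.05 or more, and dotted lines mark -1 and 1. The 7 genes past the threshold from Stem to TGF-β are named, and no brown point lies beyond -1 or 1.

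For each of the 6 genes past the threshold from Stem to TGF-β, the 2 most similar other genes with at least 100 mean normalized counts were found by Pearson's r over the 9 libraries on log2(normalized count + 1), among 10868 genes. *Igf1* was closest to *Mdh2* and *Atf4* (r = 0.999 for each), *Igfbp2* to *Parvb* and *Mpv17l2* (0.998 and 0.997) and *Igf1r* to *Abl2* and *Arsk* (0.999 for each). *Igfbp4* was closest to *Lifr* and *Ggt5* (0.999 for each), *Igfbp3* to *Klhl22* and *Cyp7b1* (0.997 and 0.996), and *Igf2* to *Zfp607b* and *Camk2g* (0.990 and 0.976). *Lifr*, the receptor of leukemia inhibitory factor, had mean normalized counts of 18510.2, 1719.9 and 1849 in Stem, TGF-β and Both. The size of the change can differ widely within such a match. *Camk2g*, matched to *Igf2*, had means of 2194, 1728 and 1744. *Mdh2*, matched to *Igf1*, had 2898, 4963 and 4641. These libraries fall into groups far apart, so such values describe a likeness in the order and relative spacing of the 3 group means, not in fold change, and carry no p.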

How the data were processed

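RNA was taken from 9 cultures of AdvSca1-SM cells, and ribosome-depleted libraries were made with a stranded kit. The authors deposited counts of reads per Ensembl gene for each library, without normalization. The study's methods name Flexbar trimming and STAR on GRCm39, while the submitters' processing notes list HISAT2 2.2.1, SAMtools 1.13 and HTSeq 0.11.3. The strand setting and the handling of multi-mapping reads are not given in the sources used here, so counts of overlapping genes are uncertain. Symbols and exon lengths came from GENCODE M21 on GRCm38.

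Counts were fitted with edgeR 4.0.16 in R 4.3.3 (filterByExpr, TMM scaling, quasi-likelihood test, 1 fit of all 9 libraries by group, Benjamini-Hochberg adjustment over 14879 genes). Intervals are at 95%. The study used DESeq2, which was run as an alternative (1.42.0), with other scalings, filters, sample sets, a replicate block, TREAT and each library left out. Floors used 3 counts per library.

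Members and lists were chosen with earlier results of these data known. The text names all members, pathway genes past the threshold in any comparison, and the 2 genes most alike to each member past it between Stem and TGF-β. Deviations of same-numbered libraries correlated over 0.1 in 3 of 9 pairs, all of replicate 2, against 2 of 18 pairs of other numbers. The numbers were not taken to pair the samples in the main fit.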

Additional observations from a re-analysis of the deposited data

How the results depend on the processing

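Across 16 alternatives, 838 of 862 log2 fold changes of named genes kept their direction and their side of an adjusted p of 0.05, while 16 lost the call, 3 gained it and 5 changed sign. All 5 changes of sign were in TGF-β against Both, in genes with no call there. With each library left out, *Igf2* ran from -0.33 (without TGF-β replicate 3) to 0.93, *Igfbp3* from -0.27 to 0.018 (without TGF-β replicate 2), *Igfbp7* from -0.043 to 6.04e-04 (without Both replicate 2), and *Stc1* from -0.50 (without Both replicate 1) to 0.56, with -0.42 without TGF-β replicate 3. Between TGF-β and Both, the count of IGF genes past the threshold was 0 under TREAT and 0 to 1 with each library left out (0 without Both replicate 2), and the count at an adjusted p below 0.05 was 3 to 5 with each library left out (3 without TGF-β replicate 2 or without Both replicate 1). The count of pathway genes at an adjusted p below 0.05 was 4 to 12 with each library left out, with 5 or fewer without any 1 of TGF-β replicates 1, 2 and 3 or Both replicates 1 and 3. The *H19* call with PFI-3 was lost in 5 of those fits (adjusted p 0.0511 to 0.0921), while its log2 fold change ran from -0.59 to -0.43 over all of them, against -0.49 reported. Other counts of these lists stayed within 1.5 times the reported ones. Over all genes, 1327 had an adjusted p below 0.05 between TGF-β and Both, against 2309 with the replicate block, 2310 with the 6 libraries alone and 639 to 2193 with each library left out, and 94 were past the threshold, against 163 with no filter and 4 under TREAT.

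Same-numbered libraries of different groups correlated at -0.0601 to 0.177 in their deviations from group means. The 3 pairs of replicate 2 were over 0.1 (0.117 to 0.177) and the 6 pairs of replicates 1 and 3 were not. Pairs of a replicate 2 library with a library of another number ran from -0.156 to -0.0057. Over all 18 pairs of other numbers the range was -0.156 to 0.148. The numbers were not read as pairs in the main fit, and the source of the likeness among replicate 2 libraries was not tested. With the replicate block the IGF genes past the threshold were 6, 1 and 6 in the 3 comparisons, and *Igfbp6* gained a call between Stem and TGF-β at a log2 fold change of -0.14 (adjusted p = 0.0430 by edgeR). Depth limits *Igf2*, *Stc1* and *Igf2os* in TGF-β and Both, where counts were 8 or fewer. *Igf2* and *Stc1* were filtered out of the fit of the 6 TGF-β and Both libraries alone. The cause of these changes was not tested.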
